A study of Mus musculus with 2 samples.

Results

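The cells described here are the Sfrp2-Angptl7-Tnc cells of the mouse mitral valve, proposed as fibrous valve interstitial cells. They were picked from 2 droplet single-cell RNA libraries of mitral valve leaflets dissected at E17.5, late in gestation. A barcode was a member when its summed UMIs (unique molecular identifiers, each standing for 1 captured transcript) of Sfrp2, Angptl7 and Tnc reached at least 3 and exceeded the matching sum of each of 4 other interstitial gene trios. It also had to hold at least 30 UMIs of Col1a1, Col1a2 and Col3a1 per 10000, at most 2 UMIs of the endothelial genes Pecam1, Cdh5 and Egfl7, and none of the cycling genes Mki67 and Top2a. This gave 854 members among 17162 kept barcodes, 187 of 6403 in the mutant library and 667 of 10759 in the wild-type library. The mutant embryos carried Nfatc1-Cre together with Dicer loxp/loxp, and the controls were wild type. Leaflets of 3 to 4 hearts were pooled per genotype, digested with 0.05% trypsin and sorted with the viability dye 7-AAD. The Nfatc1 gene is active in the endocardium, whose cells also give rise to valve mesenchyme, so Cre activity is not confined by design to the cells described here.

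Valve interstitial cells are the fibroblast-like cells inside the leaflets. During late gestation they lay down a layered matrix in which a collagen-rich fibrous zone bears tension, a proteoglycan-rich zone absorbs compression and elastic fibres allow recoil. Dicer1 encodes the enzyme that cuts hairpin precursors into mature microRNAs, short RNAs that pair through their seed with sites in messenger RNAs and lower their output. Mature microRNAs themselves were not measured.

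Each genotype is represented by 1 library, so genotype, pool of hearts and library preparation cannot be told apart, no test between genotypes was possible and no p-value is given. All intervals are 95% intervals for counting error only and leave out the spread between embryos. Intervals of CPM and of CPM ratios come from summed counts and also leave out the spread between cells. The mutant library held 69475632 UMIs in 8250 barcodes and the wild-type library 70221728 in 12793. Mutant members had a median of 9930 UMIs and 3294 genes, and wild-type members 5715 UMIs and 2348 genes, so shares of cells with a transcript are also given after thinning each cell to 2000 UMIs, which leaves out 3 mutant and 13 wild-type members. The pools differed in sex. Of the mutant members 98 were female-type (Xist and no Y-linked transcript), 64 male-type and 25 open, whereas of the wild-type members 641 were female-type, 0 male-type and 26 open. The libraries shared 11 kept barcode sequences, 0 of them among the members of both.

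The label was checked against 6 marker genes, of which Sfrp2, Angptl7 and Tnc are fixed by the choice of members and are given as a description. Sfrp2, a secreted modulator of WNT signalling on chromosome 3 (83766321 to 83774316, GRCm38), stood at 1467 CPM (UMIs of the gene per 1000000 UMIs of the cells) in mutant members and 1778 CPM in wild-type members. It was detected in 92.0% of mutant and 99.0% of wild-type members, and after thinning in 77.7% and 91.0%. In endothelial-marker-rich barcodes, which should lack it, it was detected in 2.22% of mutant and 1.93% of wild-type cells, at median depths of 8059 and 5060 UMIs.

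Tnc, which encodes the matricellular glycoprotein tenascin C (chromosome 4, 63959785 to 64047015), was at 298 CPM in mutant and 197 CPM in wild-type members. A Tnc transcript was found in 73.8% of mutant and 50.2% of wild-type members, and after thinning in 38.6% and 28.3%. Angptl7, a secreted angiopoietin-like protein (chromosome 4, 148495183 to 148500460), was found in a minority, 17.1% of mutant and 21.7% of wild-type members, or 7.07% and 14.2% after thinning. Its level was 53.7 CPM in mutant and 107 CPM in wild-type members. Of endothelial-rich barcodes, 9.43% in the mutant and 4.56% in the wild-type library held a Tnc transcript, and 0.174% and 0.190% an Angptl7 transcript. The members are thus chiefly Sfrp2 cells, with Tnc in many and Angptl7 in few.

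The other 3 markers were not used by the rule. Eln, which encodes elastin (chromosome 5, 134702593 to 134747323), was at 919 CPM (876 to 963) in mutant and 601 CPM (577 to 626) in wild-type members. That was above the Matn4-Col9a1-Col9a3 cells with 266 and 324 CPM, the Dlk1-Smoc2-Spon2 cells with 232 and 197 CPM and the Ccn3-Tcf21-Gpc6 cells with 156 and 312 CPM, in each pair the mutant library first. The Dpep1-Fmo2-Tnxb cells, only 14 in the mutant and 22 in the wild-type library, had 1353 CPM of Eln in the mutant and 168 CPM in the wild-type library. Ogn, encoding the small leucine-rich proteoglycan osteoglycin, was at 303 CPM in mutant and 277 CPM in wild-type members. It separated them from the Matn4-Col9a1-Col9a3 cells (2.97 CPM in the mutant, 6.83 CPM in the wild-type library), but the Dlk1-Smoc2-Spon2 cells were higher in both libraries, with 344 and 301 CPM. Moxd1, a monooxygenase-like gene, was at 35.6 CPM in mutant and 58.1 CPM in wild-type members, above the Ccn3-Tcf21-Gpc6 cells with 13.7 and 20.6 CPM. Against the Dlk1-Smoc2-Spon2 cells, the counting intervals of Moxd1 overlapped in the mutant library (27.6 to 45.2 in members and 27.3 to 36.4 in those cells) and lay apart in the wild-type library (50.8 to 66.1 against 28.3 to 37.985), and the few Dpep1-Fmo2-Tnxb cells had 58.8 and 52.9 CPM. The Ccn3-Tcf21-Gpc6 cells had 252 and 280 CPM of Ogn, so Ogn does not set the members apart from these groups, and the cells are called here by the genes that chose them.

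**Figure D1:**
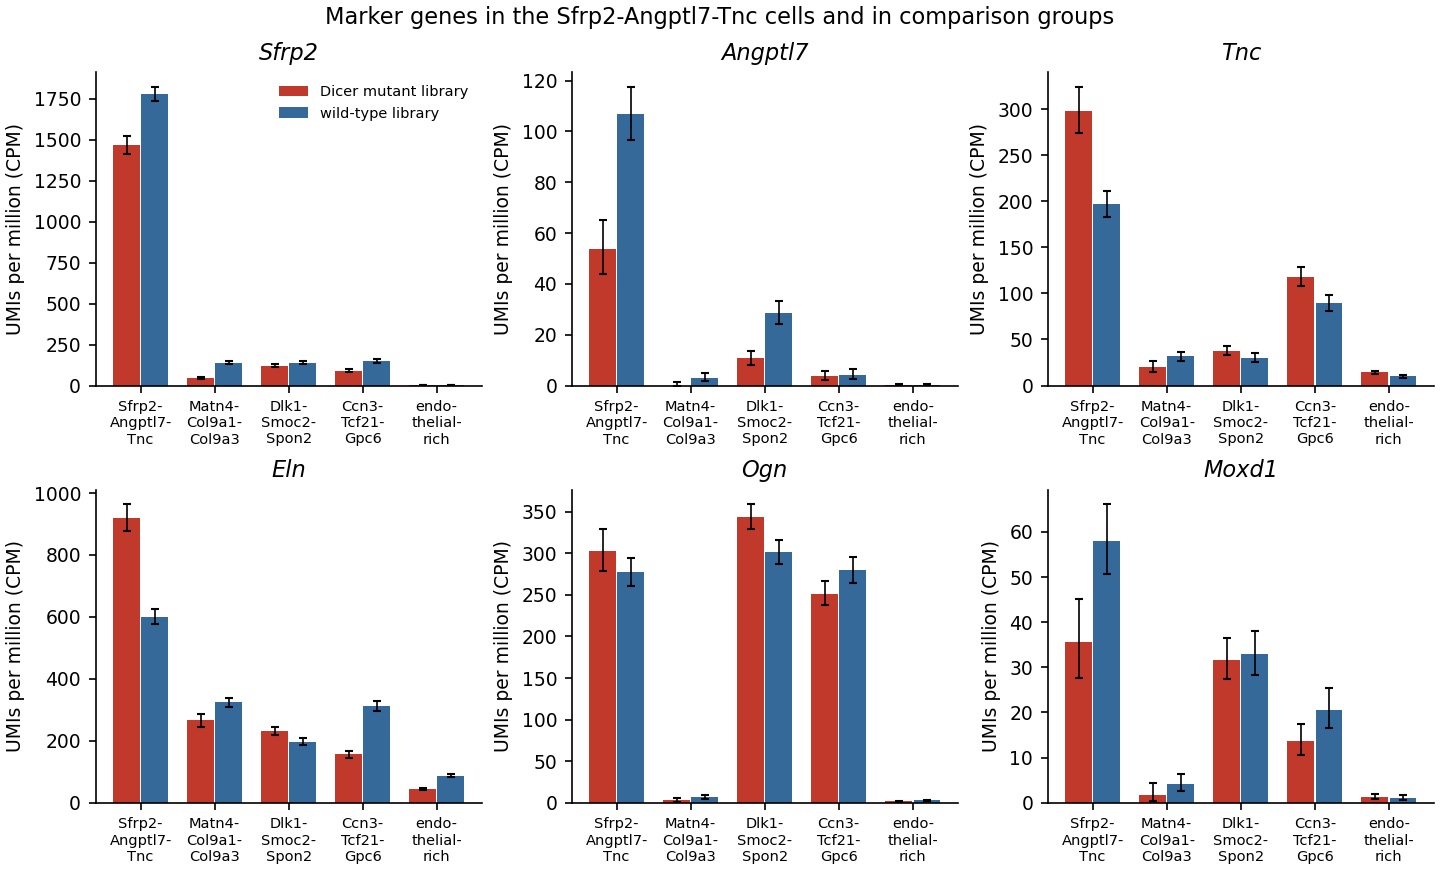
Level (CPM, vertical axes) of 6 marker genes in the Sfrp2-Angptl7-Tnc cells, 3 other interstitial groups and endothelial-marker-rich barcodes of the Dicer mutant library (red) and the wild-type library (blue). Bars are ratios of summed counts, and error bars are 95% Poisson intervals for counting error only. Of the groups shown, the members have the highest Sfrp2, Angptl7, Tnc and Eln in both libraries, whereas Ogn reaches 344 CPM in mutant Dlk1-Smoc2-Spon2 cells against 303 CPM in mutant members.

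At the edge of the rule, 10 mutant and 30 wild-type members had a marker sum of exactly 3, and 12 mutant and 33 wild-type cells led by these genes with a sum of 2 stayed outside. Ogn stood at 90.2 CPM just inside and 74.5 CPM just outside in the mutant library, and at 51.4 and 51.7 CPM in the wild-type library, below the 303 and 277 CPM of all mutant and all wild-type members. A further 13 mutant and 57 wild-type cells tied with another gene trio and stayed outside, with Ogn at 219 CPM in the mutant and 297 CPM in the wild-type library. Eln was at 361 CPM just inside and 1826 CPM just outside in the mutant library, and at 578 and 379 CPM in the wild-type library, all from few cells.

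Compared with the mean of the 4 other interstitial groups, members of both libraries had 25 of 3043 genes (0.822%) higher by 2-fold or more, and 26 (0.854%) lower by as much. The members were chosen on these same cells, so this is a description of what came with Sfrp2, Angptl7 and Tnc. At the top was Abi3bp, which encodes a secreted matrix-associated protein, at 197 CPM in mutant members against 36.1 CPM in the other groups, and at 320 CPM in wild-type members against 68.9 CPM. The mean covers 4 groups that differ among themselves, and it gives each the same weight. The Dpep1-Fmo2-Tnxb group held only 14 mutant and 22 wild-type cells, so its levels rest on few UMIs. Its Scx, for example, was at 0 CPM in both libraries. In Abi3bp the Matn4-Col9a1-Col9a3 cells were nearest to the members, at 89.5 CPM in the mutant and 215 CPM in the wild-type library. Of the 20 highest genes, 7 were at or above the members' level in the Matn4-Col9a1-Col9a3 cells of both libraries, namely Fbln5, Ltbp2, Fmod, Cthrc1, Scx, Olfml2b and Adarb1, so these are shared with that group. The 20 held genes of elastic fibres and their assembly (Fbln5, Ltbp2), matricellular proteins (Ccn4, Thbs1, Ccn2), the collagen-binding proteoglycan Fmod, the secreted Cthrc1, Fibin and Angptl1, and the actin-associated Tagln. Fbln5, encoding the elastic fibre protein fibulin 5, was at 254 CPM in mutant and 316 CPM in wild-type members, and at 276 and 380 CPM in the Matn4-Col9a1-Col9a3 cells. Thbs1, encoding thrombospondin, was at 574 CPM in mutant members against 207 CPM in the other groups, and at 341 CPM in wild-type members against 118 CPM. The Matn4-Col9a1-Col9a3 cells were nearest to them in Thbs1, with 517 CPM in the mutant and 257 CPM in the wild-type library, and they had 207 and 157 CPM of Ccn2 against 201 and 215 CPM in members. Tagln, encoding the actin-binding transgelin, was at 1064 CPM in mutant members against 371 CPM, and at 892 CPM in wild-type members against 360 CPM. The Ccn3-Tcf21-Gpc6 cells were nearest to them in Tagln, with 637 CPM in the mutant and 746 CPM in the wild-type library.

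Transcription factors were among the 20 as well. Scx, the tendon factor scleraxis, was at 171 CPM in mutant members against 72.7 CPM in the other groups and at 187 CPM in wild-type members against 72.8 CPM. The Matn4-Col9a1-Col9a3 cells had more Scx than the members, 275 CPM in the mutant and 262 CPM in the wild-type library, while the Dlk1-Smoc2-Spon2 cells had 6.56 and 12.4 CPM. Meox1, a homeobox factor, was at 403 CPM in mutant members against 146 CPM and at 415 CPM in wild-type members against 198 CPM, but the Matn4-Col9a1-Col9a3 cells had 387 CPM in the mutant and 464 CPM in the wild-type library. Fmod was at 139 CPM in mutant and 128 CPM in wild-type members, at 163 and 197 CPM in the Matn4-Col9a1-Col9a3 cells and at 12.9 and 23.2 CPM in the Dlk1-Smoc2-Spon2 cells. On Scx, Meox1 and Fmod the members thus stood beside the Matn4-Col9a1-Col9a3 cells, and on Ogn beside the Dlk1-Smoc2-Spon2 and Ccn3-Tcf21-Gpc6 cells. The lowest genes included Abcc9, a potassium channel subunit common in pericytes, at 6.38 CPM in mutant members against 54.2 CPM and at 6.59 CPM in wild-type members against 51.5 CPM. Akap12, a kinase scaffold, was at 200.4 CPM in mutant members against 742 CPM and at 148 CPM in wild-type members against 631 CPM, and lower still in the Matn4-Col9a1-Col9a3 cells, at 45.0 and 25.3 CPM. Of the 10 lowest genes, 6 were at or below the members' level in those cells in both libraries, among them Akap12, Aldh1a2 and Gstm1. Aldh1a2, which makes retinoic acid, Igfbp5, the globin-like Cygb and the glutathione transferase Gstm1 were low in members as well.

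Members differed in which of the 3 genes they carried most. Sfrp2 led in 150 mutant members (80.2%) and 618 wild-type members (92.7%). Tnc led in 33 mutant members (17.6%, 12.5 to 23.9) and 22 wild-type members (3.30%, 2.08 to 4.95), and Angptl7 in 1 mutant and 15 wild-type members. After thinning, Tnc led in 10.2% (5.56 to 16.9) of mutant and 3.41% (2.001 to 5.41) of wild-type members. Across cells thinned to the same depth, Sfrp2 and Tnc had a Spearman rho of -0.09 over 184 mutant and -0.02 over 654 wild-type members. This describes sparse counts in cells chosen on a sum that holds both genes. Such a choice by itself lowers rho, so independence of the 2 genes cannot be read from it.

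A set of genes differed between Tnc-led and Sfrp2-led members in both libraries. Of 1380 genes, Tnc-led members of both had 19 higher by 1.5-fold or more and 12 lower by as much. The neuropeptide gene Npy was at 310 CPM in Tnc-led against 28.3 CPM in Sfrp2-led mutant members, a log2 ratio of 3.44, and at 202 against 17.3 CPM in wild-type members, a log2 ratio of 3.55. Npy was found in only 17 mutant and 23 wild-type members, and the wild-type Tnc-led level rests on 32 UMIs. Of the comparison groups, the Matn4-Col9a1-Col9a3 cells had the most Npy, 170 CPM in the mutant and 51.3 CPM in the wild-type library. Nfatc1, a transcription factor of valve endocardium, had log2 ratios of 1.10 and 1.21, the protease inhibitor Serpine2 1.12 and 0.99, the collagen Col15a1 0.98 and 1.15, and Scx 0.91 and 1.03, the mutant library first. Eln was lower in Tnc-led members, at 370 against 1046 CPM in mutant and 214 against 633 CPM in wild-type members. The WNT modulator Sfrp1 (log2 ratios of -1.10 in the mutant and -1.42 in the wild-type library), the lipid carrier Apoe (-1.02 and -1.71) and Ogn (-2.45 and -0.84) were lower as well. The cardiomyocyte genes Actc1 and Tnnt2 were also lower in Tnc-led members, and the part of cardiac RNA in this contrast was not tested.

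**Figure D2:**
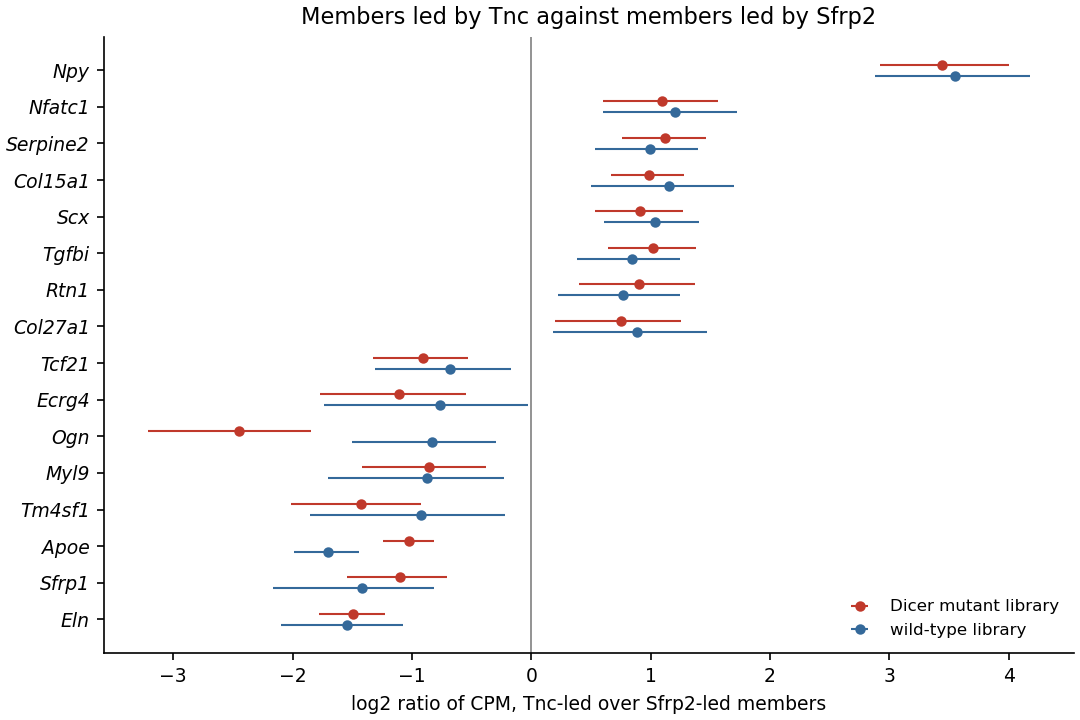
Log2 ratio of CPM (horizontal axis) in members led by Tnc over members led by Sfrp2, for 16 genes among those farthest apart in both libraries, in the Dicer mutant library (red) and the wild-type library (blue). Points are ratios of summed counts and lines are 95% counting intervals. The heart muscle genes Actc1 (-1.80 in the mutant and -1.62 in the wild-type library) and Tnnt2 (-1.03 and -1.34) are left out of the plot. Npy lies at 3.44 in the mutant and 3.55 in the wild-type library, and Eln at -1.49 and -1.54.

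The share of these cells was lower in the mutant library. They made up 2.92% (2.52 to 3.36) of kept mutant and 6.199% (5.75 to 6.67) of kept wild-type barcodes, a log2 ratio of -1.09 (-1.32 to -0.86). Of non-cycling collagen-positive cells, a denominator that leaves out other cell types, they made up 10.8% (9.34 to 12.3) of 1739 in the mutant and 16.3% (15.2 to 17.51) of 4081 in the wild-type library, a log2 ratio of -0.60 (-0.82 to -0.38). The Matn4-Col9a1-Col9a3 cells were likewise a smaller share of that denominator in the mutant library, 15.6% against 24.7%, and the Dlk1-Smoc2-Spon2 cells a larger one, 35.8% against 21.5%. Among female-type cells alone the members were 3.61% of mutant and 6.36% of wild-type barcodes, a log2 ratio of -0.82. With the rule reapplied to barcodes thinned to 2000 UMIs, the log2 ratio was -1.20 among those barcodes. Among the non-cycling collagen-positive cells of the thinned set it was -0.83. What dissection, the viability sort and the barcodes left out by thinning contributed was not tested.

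**Figure D3:**
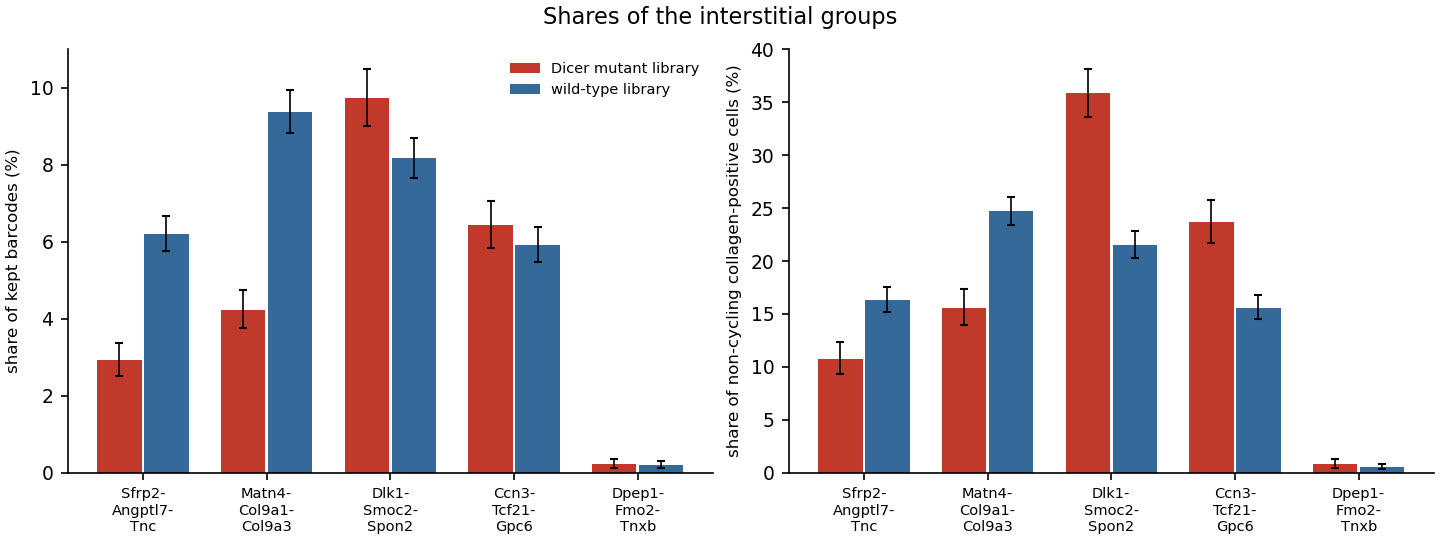
Share of 5 interstitial groups among kept barcodes (left, percent) and among non-cycling collagen-positive cells (right, percent) in the Dicer mutant library (red) and the wild-type library (blue). Error bars are exact 95% binomial intervals for counting error only. The Sfrp2-Angptl7-Tnc cells stand at 10.8% in the mutant and 16.3% in the wild-type library on the right, and the Dlk1-Smoc2-Spon2 cells at 35.8% and 21.5%.

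Dicer1, the targeted gene (chromosome 12, 104687742 to 104751952, minus strand), was at 52.6 CPM (42.8 to 64.1) in mutant and 76.8 CPM (68.4 to 86.0) in wild-type members. The log2 ratio was -0.54 (-0.89 to -0.21). Transcripts were thus still present in mutant members, and the labels do not give the deleted stretch, so tags outside it say nothing about the enzyme. Nfatc1, after which the Cre is named, was at 96.7 CPM (83.2 to 112) in mutant and 89.99 CPM (80.9 to 99.9) in wild-type members. The members had more Nfatc1 than the Dlk1-Smoc2-Spon2 cells, at 10.8 CPM in the mutant and 13.3 CPM in the wild-type library, and than the Ccn3-Tcf21-Gpc6 cells, at 26.8 and 27.0 CPM. The Matn4-Col9a1-Col9a3 cells were nearer, at 54.7 CPM (45.7 to 65.0) in the mutant and 79.2 CPM (71.9 to 87.0) in the wild-type library. In the wild-type library this interval overlapped that of the members, so Nfatc1 does not set the members apart from that group.

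Between the libraries most genes of these cells stood at close levels. Of 3261 genes with a mean of at least 50 CPM, mutant members had 13 (0.399%) higher by 2-fold or more and 6 (0.184%) lower by 2-fold or more, 19 (0.583%) in all, and the median log2 ratio was -0.01. By the same rule 0.601% and 0.3% of genes were higher and lower in the mutant Matn4-Col9a1-Col9a3 cells, 0.064% and 0.064% in the mutant Dlk1-Smoc2-Spon2 cells and 0.257% and 0.128% in the mutant Ccn3-Tcf21-Gpc6 cells. In the few Dpep1-Fmo2-Tnxb cells counting error alone is large, and the shares were 13.9% and 8.3%. Of the 13 higher genes, 8 lay far below their level in another cell type and are not read as expression by the members. Ttn, Actc1, Myh7, Myh6, Pln, Ckm and Fabp3 are heart muscle genes, and Lyz2 is a macrophage gene of which 96.4% of the mutant counts lay in 1 cell. Summed over 10 cardiomyocyte markers the level was 1917 CPM in mutant and 890 CPM in wild-type members. Of the 10 markers, 9 were at least 1.5-fold higher. Rich in such markers were 7 mutant members (3.74%) and 4 wild-type members (0.60%). Scrublet called 5 mutant members (2.67%) and 8 wild-type members (1.199%) doublets. Without all members rich in markers of other cells, 6 genes stood 2-fold or more above and 5 as far below the wild-type level. Summed globin counts went the other way, with 152 CPM in mutant and 457 CPM in wild-type members. Hba-a1 was among the 6 lower genes, with 74.5% of its wild-type counts in 1 cell. Matn4 and Col9a3, also among these 6, belong to a competing trio of the rule.

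**Figure D4:**
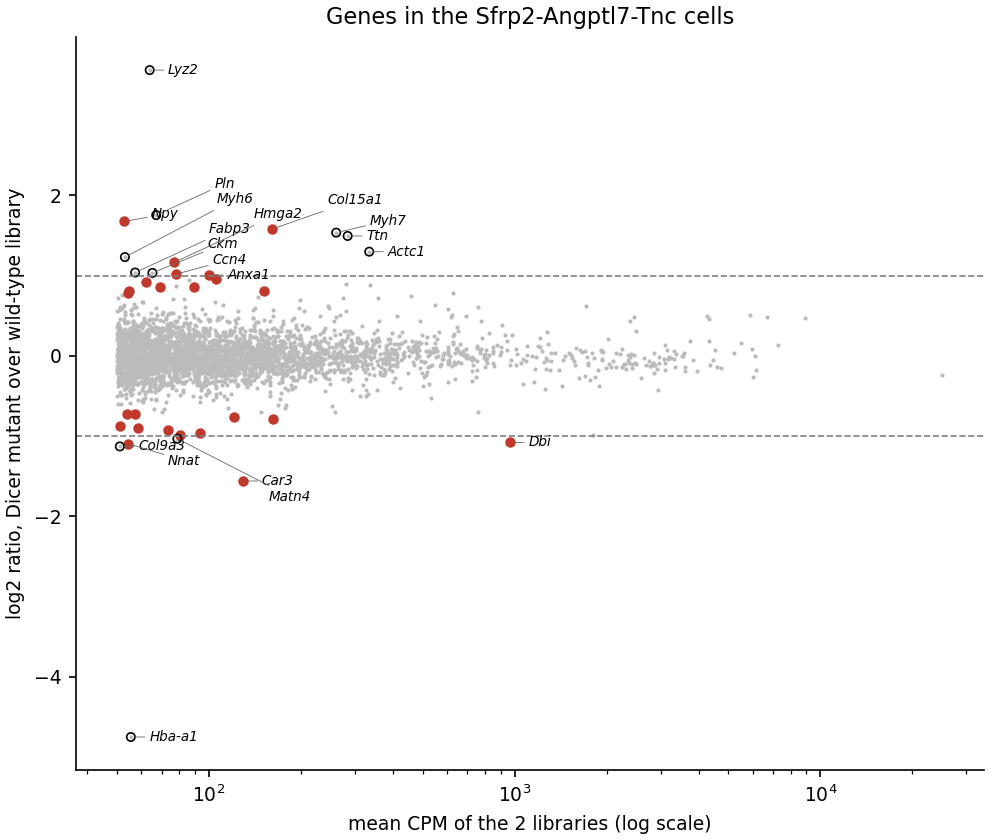
Log2 ratio of CPM in mutant over wild-type Sfrp2-Angptl7-Tnc cells (vertical axis) against the mean CPM of both libraries (horizontal axis, log scale) for 3261 genes. Filled red points are the 24 named genes, open circles are genes past 2-fold that were left out of naming, and dashed lines mark 2-fold. Most genes lie near 0, with 13 above the upper line and 6 below the lower line.

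**Figure D5:**
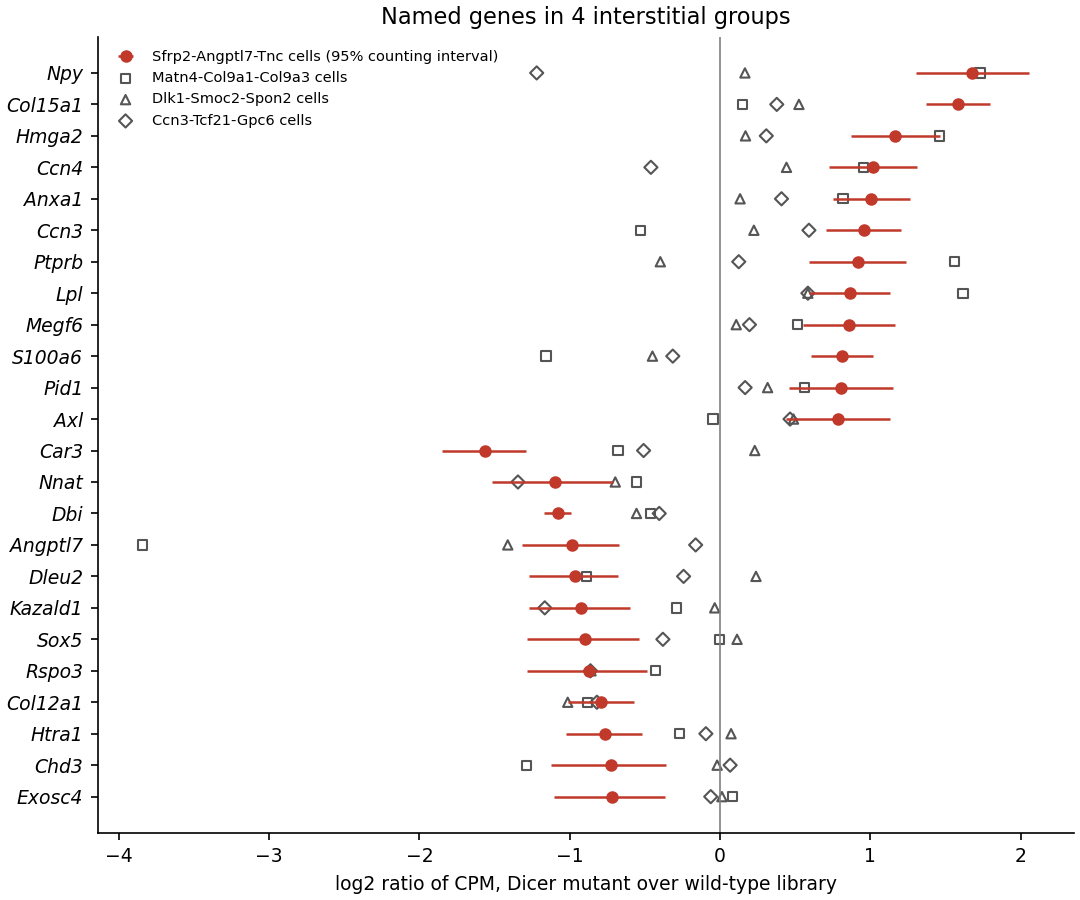
Log2 ratio of CPM, Dicer mutant over wild-type library (horizontal axis), of the 12 highest and 12 lowest named genes in the Sfrp2-Angptl7-Tnc cells (red, with 95% counting intervals) and in 3 other interstitial groups (open symbols). Col15a1 lies at 1.58 in the members and at 0.15, 0.52 and 0.38 in the other groups.

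The highest ratios among the named genes were those of Npy, Col15a1 and Hmga2. Col15a1, a collagen of basement membrane zones (chromosome 4, 47208161 to 47313167), was at 241 CPM (220 to 265) in mutant and 80.6 CPM (72.0 to 89.98) in wild-type members, a log2 ratio of 1.58 (1.37 to 1.79). It was detected in 57.2% of mutant and 25.2% of wild-type members, or in 32.6% and 10.7% after thinning. Its log2 ratio was 0.15 in the Matn4-Col9a1-Col9a3 cells, 0.52 in the Dlk1-Smoc2-Spon2 cells and 0.38 in the Ccn3-Tcf21-Gpc6 cells, and the differences between groups were not tested. With Sfrp2-led, Angptl7-led and Tnc-led members given the same weights in both libraries, the ratio of Col15a1 was 1.40. Npy was at 80.3 CPM in mutant and 25.1 CPM in wild-type members, a log2 ratio of 1.67, but it came from 17 mutant and 23 wild-type members, and 21.9% of its mutant counts lay in 1 cell. With the same weights for each leading gene the log2 ratio of Npy was 0.74, and with the rule reapplied to thinned cells it was -1.49.

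Ccn4, the WNT-induced matricellular protein WISP1 in older naming, was at 104 CPM in mutant and 51.5 CPM in wild-type members, a log2 ratio of 1.02 (0.73 to 1.31), and was also among the 20 genes highest in members against the other groups. Anxa1, which encodes annexin A1, was at 133 CPM in mutant and 66.4 CPM in wild-type members, a log2 ratio of 1.01. Below 2-fold came Ccn3 (0.96), a gene of a competing trio, Ptprb (0.92), a receptor phosphatase best known from endothelium, the lipoprotein lipase gene Lpl (0.86), Megf6 (0.86), the calcium-binding S100a6 (0.81), Pid1 (0.81) and the receptor tyrosine kinase gene Axl (0.79). S100a6 had a log2 ratio of -0.52 between female-type cells and of 1.84 between male-type mutant and female-type wild-type cells. With 0 male-type wild-type members, sex and genotype are mixed in the latter value, so an effect of sex cannot be read from it. S100a6 was found in 59 mutant members, and 16.6% of its mutant counts lay in 1 cell. Ptprb was at -0.43 with the rule reapplied to thinned cells.

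Hmga2, a chromatin architecture factor of growing embryonic tissue (chromosome 10, 120361275 to 120476469, minus strand), was at 106 CPM (92.1 to 122) in mutant and 47.4 CPM (40.9 to 54.7) in wild-type members. The log2 ratio was 1.16 (0.87 to 1.46), and it lay between 0.94 and 1.66 over 13 alternatives. After thinning it was found in 19.02% of mutant and 8.10% of wild-type members. The ratio was 1.46 in the Matn4-Col9a1-Col9a3 cells, 0.17 in the Dlk1-Smoc2-Spon2 cells and 0.31 in the Ccn3-Tcf21-Gpc6 cells. As background, Hmga2 is a classic target of let-7 microRNAs, whose members share the seed GAGGUAG, shown in capitals in 4 of 9 let-7 and miR-98 sequences from RefSeq (GRCm38.p6).
mmu-let-7a-5p: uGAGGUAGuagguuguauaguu
mmu-let-7c-5p: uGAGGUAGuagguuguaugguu
mmu-let-7i-5p: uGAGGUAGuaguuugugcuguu
mmu-miR-98-5p: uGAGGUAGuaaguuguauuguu
The annotated 3′ UTR of Hmga2 (3014 bases) holds 4 exact copies of the complementary word CTACCTC on its own strand. They are shown here in capitals with their flanks, because let-7 is known to act on this gene through words of this kind.
Hmga2 chr10:120364213-120364242, minus strand: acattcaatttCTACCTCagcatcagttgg
Hmga2 chr10:120362976-120363005, minus strand: actcctcaataCTACCTCtgaatgctacag
Hmga2 chr10:120362538-120362567, minus strand: tttgcaaggaaCTACCTCcacacttccaaa
Hmga2 chr10:120361680-120361709, minus strand: aaaacacactaCTACCTCttaagtcccagt
Of 1111 annotated 3′ UTRs within 10% of that length, 14.5% hold at least 1 such word and 0.18%, or 2 of them, at least 4. The comparison UTRs were taken by length, so Hmga2 itself can be among these 2. A match is a description of the sequence and not a measured site.

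Of other let-7 targets, Thbs1 was at 574 CPM in mutant and 341 CPM in wild-type members (a log2 ratio of 0.75). Its annotated 3′ UTR (2104 bases) held 0 copies of CTACCTC. The RNA-binding protein gene Igf2bp1 had 0.58, the kinase gene Cdk6 0.48 and the receptor gene Igf1r 0.43, while the cyclin gene Ccnd1 had 0.00. Below 0 were Dicer1 itself, Plagl2 (-0.13) and the phosphatase gene Cdc25a (-0.08). No count is given for let-7 targets, and these values do not describe them as a group. Gene lists are read beside all 8476 genes with a mean of at least 10 CPM, of which 4.31% were higher and 3.14% lower by 1.5-fold or more in mutant members, with a median log2 ratio of 0.00. A list of matrix genes known as miR-29 targets had 5 of 21 members higher and 0 lower, with a median of 0.16. The 5 were Col15a1, Hapln1 (0.75), which links hyaluronan to proteoglycans, the basement membrane genes Col4a1 (0.63) and Lamc1 (0.60), and Eln (0.61). Col1a1 (0.06), Col1a2 (0.04) and Col3a1 (0.16), of the same list, stood at close levels, and all 3 entered the rule. Of 13 genes of microRNA processing 0 passed 1.5-fold, with a median of -0.12 and Dicer1 as the lowest.

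The lowest ratios among the named genes were those of Car3, Nnat and Dbi. Dbi, which encodes the acyl-CoA-binding protein (chromosome 1, 120113280 to 120121078), was at 619 CPM (584 to 656) in mutant and 1309 CPM (1274 to 1345) in wild-type members, a log2 ratio of -1.08 (-1.17 to -0.99). Its log2 ratio was -0.46 in the Matn4-Col9a1-Col9a3 cells, -0.56 in the Dlk1-Smoc2-Spon2 cells and -0.40 in the Ccn3-Tcf21-Gpc6 cells. Car3, a carbonic anhydrase gene, was at 65.4 CPM in mutant and 193 CPM in wild-type members (-1.56), from 26 mutant and 117 wild-type members. Nnat, the imprinted neuronatin gene, was at 34.5 CPM in mutant and 74.3 CPM in wild-type members (-1.10). Angptl7 had a log2 ratio of -0.99 (-1.32 to -0.68) and helped to choose the cells.

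Below 2-fold came Dleu2 (-0.97), a long noncoding RNA that also serves as a microRNA host transcript, Kazald1 (-0.92), the chondrogenic factor gene Sox5 (-0.90) and Rspo3 (-0.87), a secreted amplifier of WNT signalling. Col12a1, a collagen that sits on fibril surfaces, was at 119 CPM in mutant and 205 CPM in wild-type members (-0.79). It was also lower in the other groups, with log2 ratios of -0.88 in the Matn4-Col9a1-Col9a3 cells, -1.01 in the Dlk1-Smoc2-Spon2 cells and -0.82 in the Ccn3-Tcf21-Gpc6 cells. The secreted protease gene Htra1 (-0.77), the chromatin remodeller gene Chd3 (-0.73) and the RNA exosome gene Exosc4 (-0.72) completed the list. Of the 24 named genes, 21 kept their direction under 13 alternatives, the exceptions being Npy, Ptprb and S100a6.

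Most fibrous and elastic matrix genes differed by less than 1.5-fold between the libraries. Of 19 measured elastic fibre genes 1, Eln, was at least 1.5-fold higher and 0 lower in mutant members, with a median log2 ratio of 0.07. Fbn1 (0.43), Lox (0.42) and Mfap5 (0.44) were above 0 and Ltbp2 (-0.51) below it. Of 17 interstitial collagens 1 was higher, Col15a1, and 1 lower, Col12a1, with a median of 0.14. Of 15 genes of collagen processing 0 passed 1.5-fold (median 0.18), and of 8 small leucine-rich proteoglycans 0 (median -0.02), with Dcn at -0.43. Of 7 tendon-type genes 1 was higher, Tnc, and 1 lower, Htra3 (-0.63), with a median of 0.03. Without Tnc, which belongs to the rule, 0 of 6 were higher and 1 lower (median -0.03). Matricellular genes had 6 of 18 members higher and 1 lower, with a median of 0.21. The higher ones were Ccn4, Ccn3, Smoc2 (0.94), Thbs1, Tnxb (0.64) and Tnc (0.60), of which Ccn3, Smoc2, Tnxb and Tnc belong to the rule. Without genes of the rule, 2 of 13 were higher and 1 lower (median 0.18). The lower one was Spon1 (-1.45), at 13.8 CPM in mutant and 38.3 CPM in wild-type members. Fibronectin, Fn1, was at 808 CPM in mutant and 572 CPM in wild-type members (0.50). Some of these medians moved with the rule reapplied to thinned cells. They were then -0.51 for tendon-type genes, 0.34 for interstitial collagens and 0.55 for matricellular genes. Those of elastic fibre genes (0.08), collagen processing (0.27) and small leucine-rich proteoglycans (-0.01) moved less.

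Cartilage-type genes include the competing trio Matn4, Col9a1 and Col9a3, whose level in members is bound to the rule. Of 11 measured cartilage-type genes 5 were at least 1.5-fold lower in mutant members and 1 higher, with a median log2 ratio of -0.37. The lower ones were Col9a3 (-1.13), Matn4 (-1.03), Col2a1 (-0.99), Col9a1 (-0.94) and Sox5, and the higher one was Hapln1. Without the trio, 2 of 8 were lower and 1 higher, with a median of -0.16. Col2a1, encoding the main collagen of cartilage, was at 25.5 CPM in mutant and 51.2 CPM in wild-type members. Sox9, the master factor of cartilage, was at 536 CPM in mutant and 671 CPM in wild-type members (-0.32). Of 10 genes of hyaluronan and versican handling 2, Hapln1 and Cemip (0.59), were higher and 0 lower (median 0.11), and versican itself, Vcan, had 0.01.

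Signalling genes stood in both directions. Among 28 cushion transcription factors 3 were higher and 3 lower in mutant members, with a median of -0.08. Lower were Lef1 (-1.21), Msx1 (-1.15), a BMP-responsive homeobox gene at 16.5 CPM in mutant and 37.0 CPM in wild-type members, and Prrx2 (-0.89). Higher were Meox2 (0.87), Sox11 (0.73) and Osr1 (0.68). Of 16 WNT modulators and receptors 2, Wnt11 (1.24) and the receptor gene Fzd4 (0.78), were higher and 2, Wnt16 (-1.37) and Rspo3, lower (median 0.09), and of 7 WNT targets 0 were higher and 1, Lef1, lower (median 0.19). The WNT target median was -0.49 with the rule reapplied to thinned cells. It lay between -0.02 and 0.47 under the other alternatives, so its sign was not stable. BMP genes had 0 of 18 higher and 2 lower, the ligands Bmp6 (-1.33) and Bmp2 (-0.84), with a median of -0.11. Their target genes Id2 (-0.50), Id3 (-0.35) and Id1 (-0.29) lay below 0. Of 16 YAP and TEAD targets 2, Ankrd1 (0.95) and Axl, were higher and 0 lower (median 0.19). Of 12 PDGF and FGF genes 3, the feedback genes Etv4 (0.68), Spry4 (0.60) and Dusp6 (0.59), were higher and 0 lower (median 0.31). Counting error is wide at the low levels of many of these genes. The interval of Osr1, at 15.4 CPM in mutant and 9.63 CPM in wild-type members, ran from -0.07 to 1.41, and that of Msx1 from -1.78 to -0.60.

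Genes of attachment, proteolysis and growth completed the picture. Of 14 integrin and adhesion genes 1 was higher, the collagen receptor gene Itga1, at 246 CPM in mutant and 152 CPM in wild-type members (0.70), and 0 were lower (median 0.13). Of 25 matrix proteases and inhibitors 1, Plat (1.07), the tissue plasminogen activator gene, was higher and 3, Htra1, Adamts15 (-0.66) and Htra3, lower (median -0.01). The IGF and imprinted list had 2 of 22 higher, Igf2r (0.72) at 444 CPM in mutant and 270 CPM in wild-type members and Mest (0.62), and 1 lower, Nnat (median 0.01). Of 9 angiopoietin-like and lipid genes 2, Lpl and G0s2 (0.61), were higher and 2, Apoe and Angptl7, lower (median -0.22). Without Angptl7, which belongs to the rule, 2 of 8 were higher and 1 lower (median -0.17). Apoe, the lipid carrier apolipoprotein E (chromosome 7, 19696109 to 19699188, minus strand), was at 1209 CPM in mutant and 2405 CPM in wild-type members, a log2 ratio of -0.99, and it lay between -1.49 and -0.67 over the alternatives. It was kept out of the named genes because macrophage-rich barcodes held far more, 21547 CPM in the mutant and 22472 CPM in the wild-type library, and the part of free RNA in its level was not tested. The same holds for other list genes that members carried at levels over 5-fold below those of other barcodes, Ankrd1 (highest in cardiomyocyte-rich barcodes), Mest and Meox2 (endothelial-rich) and Dusp6 (macrophage-rich), and for Wnt16 and Osr1 beside other interstitial groups. Of 10 p53 targets 2 were higher and 0 lower (median 0.30), Zmat3 (0.82) and Cdkn1a, the cell cycle inhibitor p21, at 48.9 CPM in mutant and 12.4 CPM in wild-type members (1.97). Between female-type cells the log2 ratio of Cdkn1a was 0.99.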

How the data were processed

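Matrices of unnormalised UMI counts (genes by barcodes) were deposited by the authors for 1 mutant and 1 wild-type library, and the submitters' processing notes name Cell Ranger 5.0.0 and the mm10 genome. The annotation release, counting options and barcode filter are not given in the sources used here. Both tables list 32285 genes, and the smallest barcode total is 500 UMIs. Barcodes were kept with at least 500 genes, at least 1000 UMIs and under 20% mitochondrial counts. No doublets were removed by the rule. Scrublet in scanpy 1.11.5 called 3.44% of mutant and 3.83% of wild-type kept barcodes, below the 5.12% and 8.61% expected at 0.8% per 1000 barcodes, and their removal was an alternative.

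Counts were summed over the members of each library and scaled to CPM. Log2 ratios carry 0.5 added counts and an exact conditional Poisson interval, and shares an exact Clopper-Pearson interval (scipy 1.17.1, numpy 2.4.6). The ratio was tested on simulated counts. With 1 library per genotype there were no replicates and no tests. Genes with a mean of at least 50 CPM were called at 2-fold, and list members with a mean of at least 10 CPM at 1.5-fold. Named genes are the 12 highest and 12 lowest ratios at 50 CPM, without erythroid, mitochondrial, ribosomal, sex-linked and unnamed predicted genes, and to limit free RNA, without genes whose higher level stayed below their top CPM among the comparison groups divided by 5. Markers, Dicer1, Nfatc1, the 20 highest and 10 lowest genes against other groups and up to 5 members per list were named too. The contrast of Tnc-led and Sfrp2-led members used genes with a mean of at least 100 CPM in both libraries. The level on the lower side could be below that floor, as it was for Npy in Sfrp2-led members. Coordinates and 3′ UTRs come from GENCODE M21 on GRCm38, in which 32235 gene identifiers were found. Of the list genes, 3 are not reported here, and neither are summaries of the 2 lists that hold them. The members, markers and lists were chosen with earlier results of these data known. Alternatives were a stricter filter, doublet removal, other marker limits, thinning, sex-matched cells, other level floors, other weights and centring, and 3 chosen after seeing the data.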

Additional observations from a re-analysis of the deposited data

How the results depend on the processing

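No paired analysis was possible because each genotype has 1 library. The share of the Sfrp2-Angptl7-Tnc cells was lower in the mutant library under each of 8 settings tried. Its log2 ratio among kept barcodes was -0.79 (2.08% of mutant against 3.59% of wild-type barcodes) when at least 2 of the 3 marker genes had to be detected and -0.82 among female-type cells. Among non-cycling collagen-positive cells it was -0.31 (7.65% against 9.46%) with at least 2 markers and -0.83 (6.23% against 11.1%) after thinning. The number of genes at least 2-fold higher, 13, was 6 with the stricter filter, 7 without called doublets, 23 with at least 2 markers, 45 after thinning, 6 without members rich in other markers, 38 at a floor of 20 CPM, 4 at 100 CPM and 7 without the member with most UMIs of each gene. The number lower, 6, was 11 at a marker sum of at least 6, 25 after thinning, 10 for male-type mutant against female-type wild-type cells, 21 at 20 CPM and 2 at 100 CPM. Fewer counts per gene and fewer or more genes tested are built into the thinned and floor settings, and the cause of the other shifts was not tested. Npy reversed after thinning, at -1.49. The comparison without marker-rich members, the male-type comparison and the removal of the top member per gene were chosen after seeing the data. Thinning left out 422 mutant and 530 wild-type barcodes. With 187 mutant members, genes near 10 CPM rest on few counts, and differences between embryos and between libraries cannot be separated from genotype.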

Other observations

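Metabolic and stress genes in the Sfrp2-Angptl7-Tnc cells are given as counts at 1.5-fold in mutant members, beside 4.31% higher and 3.14% lower over all genes measured. Of 17 genes of glycolysis and the hypoxia response 3 were higher, Pfkp (0.98), Hk2 (0.73) and Bnip3 (0.61), and 0 lower, with a median log2 ratio of 0.34. Gapdh, the glycolytic dehydrogenase gene, stood at 894 CPM in mutant and 662 CPM in wild-type members (0.43). All 13 mitochondrially encoded genes were above 0, with a median of 0.46 and 2 past 1.5-fold, and mutant members had a median of 3.78% mitochondrial counts against 2.96% in wild-type members. The unfolded protein response had 2 of 18 higher, the chaperone genes Sdf2l1 (0.77) and Hyou1 (0.70), and 0 lower, with a median of 0.18. Of 17 glutathione and selenium genes 2, Gstm2 (0.87) and Gpx3 (0.67), were higher and 0 lower, with a median of 0.04. Immediate early genes, which respond to tissue dissociation, had 0 of 21 past 1.5-fold and a median of 0.03, and interferon-stimulated genes 0 of 5 and a median of 0.13. In thinned cells the medians of these last lists were -0.35 and -0.05. Pfkp and Hk2 were over 5-fold below their level in cardiomyocyte-rich and macrophage-rich barcodes, and Gpx3 below that in the Dpep1-Fmo2-Tnxb cells. The parts of mitochondrial content and free RNA in these levels were not tested.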
